A study of Mus musculus with 28 samples.

Results

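Replacing GATA4 by MYOCD in a mixture of cardiac reprogramming factors was read from 6 of the 28 arrays of the study, 3 DMT cultures (MYOCD, MEF2C and TBX5, replicates 1 to 3) and 3 GMT cultures (GATA4, MEF2C and TBX5, replicates 3 to 5). These 6 arrays were scaled together, so no term for scaling stood between them. All cultures began as mouse embryonic fibroblasts (MEFs), whose strain and embryonic age the labels do not give. Every DMT and GMT culture also received a lentivirus for rtTA, the doxycycline-dependent activator of the factor viruses, and a reporter virus in which a troponin T promoter drives the calcium indicator GCaMP5 and zeocin resistance. Doxycycline was given at 2 μg/mL, and RNA was taken on day 21, after 7 days in which 300 μg/mL of zeocin selected the cells that used the reporter. The labels call the replicates independent, and each array is 1 bulk culture, in which fewer cells of a type and less RNA per cell cannot be told apart. NGMT (NKX2.5 added to GMT), HGMT (Hand2 added to GMT) and HNGMT (both added), with 3 arrays each scaled together with these 6, entered the fit. GMT replicates 1 and 2 and 3 cultures of MEFs without factors (0F), scaled apart from the 6 arrays, gave a separate comparison of GMT with 0F. By title and protocol the 0F cells were not transduced, while the source label, the same for all samples, calls them selected.

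Myocardin, the product of MYOCD, is a transcriptional coactivator of smooth and cardiac muscle that does not bind DNA by itself. It acts through serum response factor (SRF), which binds CArG boxes, A/T-rich sites between C and G pairs found near many actin, myosin and other contractile genes. GATA4 is a zinc finger factor of the early heart that binds GATA motifs. MEF2C is a muscle MADS-box factor and TBX5 a T-box factor of the atria and left ventricle, and both were present on either side of the comparison.

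The probe set of Myocd read 9.57, 9.58 and 9.80 (log2 signal) in DMT replicates 1 to 3, against 6.01, 6.07 and 6.09 in GMT replicates 3 to 5. The groups did not overlap, and the GMT arrays lay below the array median, the middle value of the 35556 probe sets on an array, which ran from 6.86 to 6.92 over the 6 arrays. No detection call is given with the values, so signal below that median may be background. Such a group's size of change is then not exact, and a group below it on all 3 arrays is called dim here. The difference, 3.59 ± 0.08 (log2, standard error (SE); adjusted p = 4.34e-13, limma), matches the labels. For Gata4 the probe set read 6.79, 6.72 and 6.98 in DMT, against 7.25, 7.09 and 7.04 in GMT, a fall of small size (-0.30 ± 0.09, adjusted p = 0.0386). That call was lost without DMT replicate 1 (adjusted p = 0.119) or 2 (0.175) and without GMT replicate 3 (0.17) or 4 (0.0808). It was also lost on the 6 arrays alone (0.0691), on these with a term for array number (0.138), under quantile normalization (0.0787) and under median centring (0.0765). On the separate arrays the same probe set differed by only 0.23 ± 0.08 between GMT and 0F (adjusted p = 0.0374, lost when any one of those 5 arrays was left out, with adjusted p of 0.057 to 0.185). Whether this probe set reads the delivered sequence was not tested. Mef2c (0.15 ± 0.09, 95% interval -0.04 to 0.35) and Tbx5 (0.02 ± 0.13, -0.26 to 0.30), delivered to both groups, did not pass the test. Neither did Nkx2-5 (0.04 ± 0.06, -0.10 to 0.17) or Hand2 (-0.00 ± 0.09, -0.20 to 0.20), which were in neither mixture. Mef2c passed only when GMT replicate 5 was left out (0.27, adjusted p = 0.0299).

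Of 11426 genes tested, 740 were higher in DMT than in GMT (6.48%) and 741 lower (6.49%) at an adjusted p under 0.05 (limma, Benjamini-Hochberg, two-sided), together 13.0% of genes. Genes past this threshold are called higher or lower throughout. At least 2-fold differences were found for 103 genes that were higher (0.901%) and 112 that were lower (0.980%). The 3 DMT arrays lay all above or all below the 3 GMT arrays for 3640 genes (31.9%), and for 1457 of the 1481 genes called. Median difference over all genes was 0.01, and the median half-width of the 95% interval of a difference was 0.17. Pairs of arrays within DMT correlated at 0.997 to 0.998 over all probe sets, those within GMT at 0.994 to 0.998 and those between the groups at 0.990 to 0.994.

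**Figure D1:**
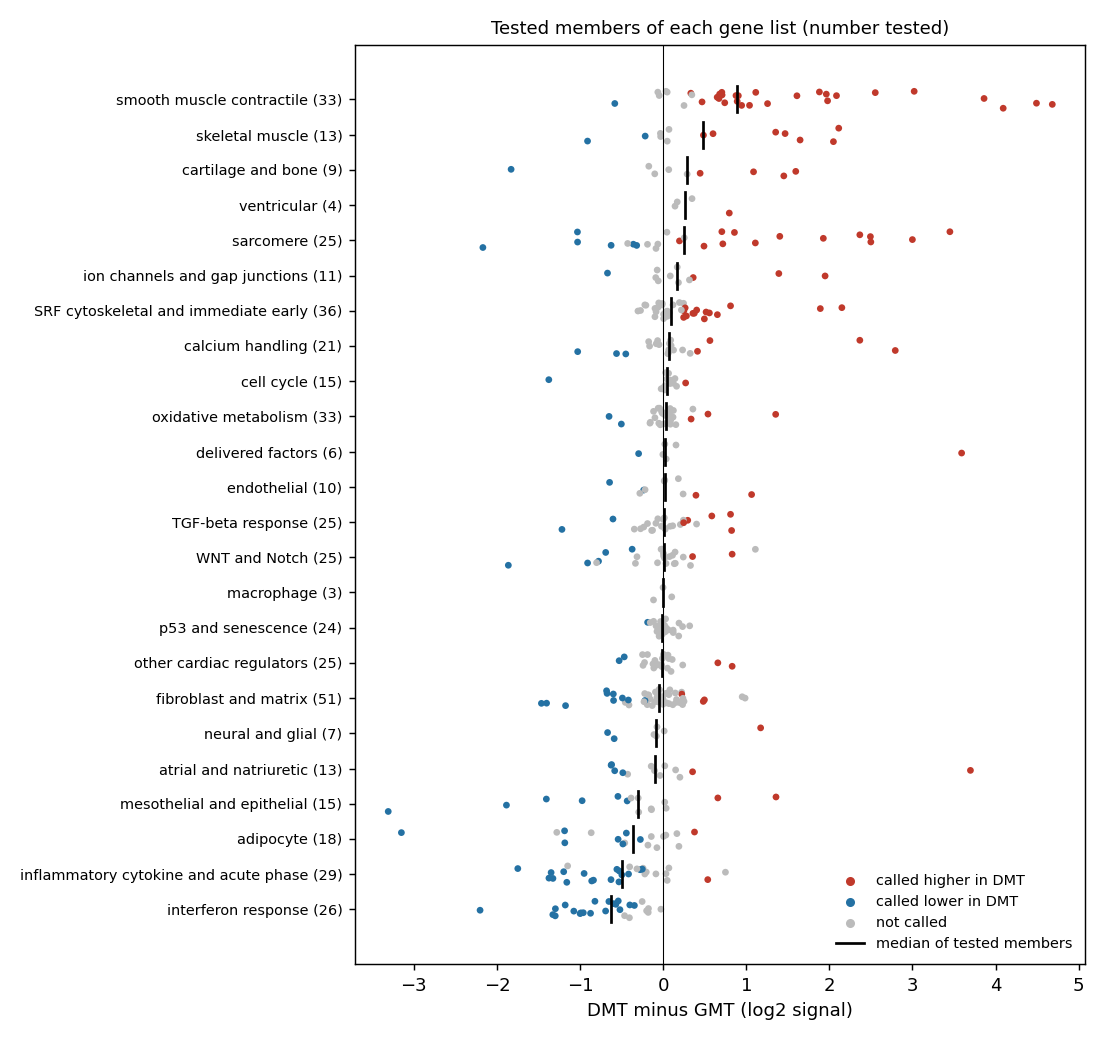
Log2 difference DMT minus GMT (horizontal axis) of every tested member of 24 gene lists, with the number tested in brackets and a black bar at the median. Red points were called higher in DMT, blue points lower, and grey points were not called. The smooth muscle list stands at the top with a median of 0.89 and the interferon list at the bottom with a median of -0.62.

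Smooth muscle contractile genes rose together. Of 33 tested members of that list 26 were higher in DMT (9 of them dim in GMT), 1 was lower and 6 were not called, against 6.48% and 6.49% of all genes, and their median difference was 0.89. Tested genes were above the array median on at least 3 arrays of the fit. Members dim in GMT could pass this filter on dim genes through the DMT arrays. With no filter 26 of 34 members were higher and 1 lower. Cnn1, which encodes the actin-binding calponin of smooth muscle, read 11.34, 11.37 and 11.49 in DMT, against 6.72, 6.75 and 6.68 in GMT. The GMT arrays were dim, and the 9 arrays of NGMT, HGMT and HNGMT ran from 6.43 to 7.05. The difference was 4.68 ± 0.11 (25.7-fold, adjusted p = 4.34e-13). Myh11, the smooth muscle myosin heavy chain that is a defining marker of the mature cell type, read 10.73, 10.85 and 11.07 in DMT, against 6.40, 6.52 and 6.26 (dim) in GMT (4.49 ± 0.10, 22.5-fold). Kcnmb1, the β subunit of the large-conductance potassium channel of smooth muscle, read 8.89, 8.89 and 9.37 in DMT, against 4.92, 5.01 and 4.94 (dim) in GMT (4.09 ± 0.10, 17.0-fold). Actg2, the enteric smooth muscle actin, read 9.66, 9.71 and 10.03 in DMT, against 5.82, 5.99 and 6.01 (dim) in GMT (3.86 ± 0.10, 14.5-fold). None of these 4 genes had a DMT array within 2-fold of any GMT array.

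Members already well above the array median in GMT rose as well. Myl9, the regulatory myosin light chain of smooth muscle, read 11.97, 11.96 and 12.20 in DMT, against 8.89, 9.08 and 9.10 in GMT (3.02 ± 0.10, 8.11-fold). The members of the next 3 sentences were chosen after their values were seen. Tagln (transgelin, or SM22) read 11.08, 11.15 and 11.41 in DMT, against 8.48, 8.70 and 8.81 in GMT (2.55 ± 0.13). Acta2, the smooth muscle α-actin also made by activated fibroblasts, read 13.01, 12.96 and 13.14 in DMT, against 10.85, 11.02 and 10.98 in GMT (2.09 ± 0.07). Further rises of 1.26 ± 0.16 for the myosin light chain kinase Mylk, 1.88 ± 0.10 for the integrin Itga8, 1.98 ± 0.12 for the amine oxidase Aoc3 and 1.61 ± 0.11 for the adhesion-plaque protein Pgm5 also passed the test. The only member that was lower was Prkg1, the cGMP-dependent kinase that relaxes smooth muscle, at 8.38, 8.23 and 8.08 in DMT, against 8.70, 8.84 and 8.88 in GMT (-0.58 ± 0.08, adjusted p = 0.000186). The 6 members that were not called were Des, Ppp1r12b, Notch3, Barx1, Fbln5 and Npnt, with differences of -0.06 to 0.34 (1 of the other probe sets of Ppp1r12b differed by 0.71). Leaving out any one of the 6 arrays kept the number of higher members at 26.

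**Figure D2:**
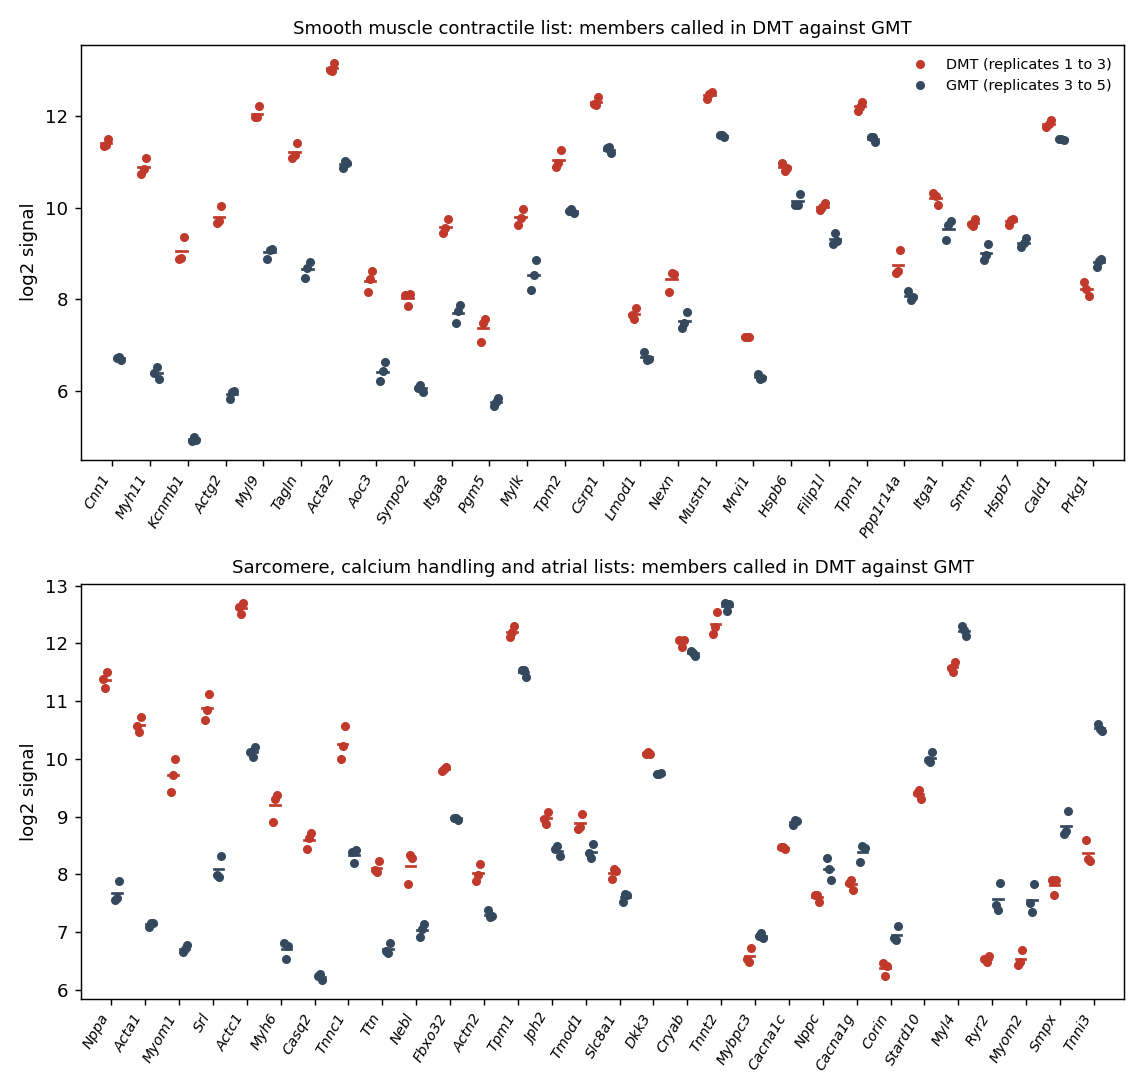
Log2 signal (vertical axis) of each array for the members called in the smooth muscle list (top) and in the sarcomere, calcium handling and atrial lists (bottom), ordered by difference. Red points are DMT replicates 1 to 3, dark points GMT replicates 3 to 5, and the short lines are group means. From Cnn1 to Aoc3 all DMT points stand above all GMT points by more than 1 log2 unit, while Tnni3, at the far right of the lower panel, lies higher in GMT.

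An exact CArG box was found in 2 of 28 promoters of the smooth muscle list with an entry (7.14%, against 1.65% of all tested genes with an entry). The 6 promoters with a box printed here, to show the site beside the size of change, are those of Myl9 and Filip1l from that list and of Acta1, Actc1, Myom1 and Fhl1 from the sarcomere and SRF lists described further on. They are the 250 bases before the annotated gene start from RefSeq (GRCm38.p6), 5′ to 3′ on the gene's strand, with the box in capitals. The box begins 73 bases before the start of Acta1 at chr8:123894776-123895025 (minus strand), 47 bases before that of Actc1 at chr2:114052876-114053125 (minus strand) and 161 bases before that of Myl9 at chr2:156775214-156775463 (plus strand). It begins 99 bases before the start of Myom1 at chr17:71019307-71019556 (plus strand), 102 bases before that of Fhl1 at chrX:56779433-56779682 (plus strand) and 62 bases before that of Filip1l, a filamin-interacting protein, at chr16:57548992-57549241 (plus strand). Filip1l, chosen after its value was seen, rose by 0.71 ± 0.07, although its other probe set differed by -0.02 and the mean of both by 0.35. Not printed are promoters with a box of other members of these lists called higher, mostly with smaller rises. They are those of Nebl (1.11), Cnn2 (0.65), Vcl (0.37) and Fhl2 (0.25). Only members called higher are printed or named here. The 7 of 29 SRF list promoters with a box also include members that were not called.
Acta1: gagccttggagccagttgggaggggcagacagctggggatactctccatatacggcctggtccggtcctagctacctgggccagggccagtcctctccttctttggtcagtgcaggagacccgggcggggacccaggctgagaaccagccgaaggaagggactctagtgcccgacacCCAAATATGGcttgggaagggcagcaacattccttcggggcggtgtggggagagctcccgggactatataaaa
Actc1: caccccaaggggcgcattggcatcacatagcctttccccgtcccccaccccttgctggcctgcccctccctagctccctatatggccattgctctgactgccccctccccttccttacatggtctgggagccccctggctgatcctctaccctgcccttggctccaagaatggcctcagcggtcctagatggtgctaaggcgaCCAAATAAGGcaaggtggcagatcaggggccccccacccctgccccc
Myl9: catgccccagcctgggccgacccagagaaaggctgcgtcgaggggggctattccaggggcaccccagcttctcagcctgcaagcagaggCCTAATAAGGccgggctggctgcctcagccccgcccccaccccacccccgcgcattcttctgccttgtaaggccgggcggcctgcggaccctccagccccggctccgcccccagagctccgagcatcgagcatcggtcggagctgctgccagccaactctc
Myom1: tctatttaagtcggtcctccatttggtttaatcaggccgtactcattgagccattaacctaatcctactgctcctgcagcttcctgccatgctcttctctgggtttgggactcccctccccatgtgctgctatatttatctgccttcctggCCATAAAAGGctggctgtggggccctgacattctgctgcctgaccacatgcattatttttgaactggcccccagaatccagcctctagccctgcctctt
Fhl1: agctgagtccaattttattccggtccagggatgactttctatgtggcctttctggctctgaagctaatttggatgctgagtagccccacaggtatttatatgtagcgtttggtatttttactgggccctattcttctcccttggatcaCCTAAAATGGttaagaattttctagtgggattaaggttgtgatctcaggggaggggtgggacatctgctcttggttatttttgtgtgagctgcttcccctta
Filip1l: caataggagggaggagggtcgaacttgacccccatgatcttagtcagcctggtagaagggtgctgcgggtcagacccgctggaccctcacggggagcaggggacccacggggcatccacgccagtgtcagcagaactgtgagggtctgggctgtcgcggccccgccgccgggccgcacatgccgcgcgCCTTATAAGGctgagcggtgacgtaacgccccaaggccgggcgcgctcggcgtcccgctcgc

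Over the window from 250 bases before to 50 bases after the start, on both strands and with overlapping matches allowed, an exact CArG box (2 letters C, then 6 letters A or T, then 2 letters G) was found in 1.65% of tested genes with a promoter entry (151 of 9132). The share was 5.22% among the genes called higher and 13.9% among those at least 2-fold higher (11 of 79). It was 0.907% among the genes called lower and 1.27% among those at least 2-fold lower (1 of 79). By list the box was present in 6 of 22 sarcomere genes (27.3%), 7 of 29 SRF cytoskeletal genes (24.1%) and 2 of 28 smooth muscle genes (7.14%). In all 32851 promoters of the RefSeq table the share was 1.63%. Acta2, Cnn1 and Kcnmb1 had an entry without an exact box in this window. Myh11, Tagln and Actg2 had no entry and could not be searched. The shorter GATA letters GATAA, on both strands, were in 18.8% of the genes called higher and 19.0% of those at least 2-fold higher (15 of 79). They were in 26.3% of the genes called lower and 38.0% of those at least 2-fold lower (30 of 79), against 18.6% of all genes tested and 25.4% of all promoters of the table. By list they were in 8 of 22 sarcomere genes (36.4%), which moved in both directions, and 8 of 23 interferon genes (34.8%). The share was 20.7% in the SRF cytoskeletal list, 19.0% in the inflammatory list and 17.9% in the smooth muscle list. These matches are letters in a window, not binding sites.

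Of 36 tested members of the cytoskeletal and immediate early list 14 were higher in DMT (38.9%, against 6.48% of all genes). None was lower (against 6.49%) and 22 were not called, with a median of 0.10. Pdlim3, a PDZ and LIM protein of the Z-disc and of smooth muscle dense bodies, read 9.03, 9.01 and 9.35 in DMT, against 7.00, 7.11 and 6.83 in GMT (2.15 ± 0.09). Fhl1, a LIM-only protein of muscle, read 12.18, 12.15 and 12.42 in DMT, against 10.30, 10.39 and 10.39 in GMT (1.89 ± 0.08). Smaller rises were found for Cnn2, the non-muscle calponin (0.65 ± 0.08), for Ccn2, a matricellular protein (0.81), and for vinculin, Vcl (0.37 ± 0.08, adjusted p = 0.00592, named after its value was seen). The 22 members that were not called held other cytoskeletal and adhesion genes, among them Zyx, Tln1 and Myh9 (-0.05 to 0.20), besides immediate early genes. The immediate early genes Egr1, Egr2, Egr3, Fos, Fosb, Junb, Ier2 and Ier3 were not called, with differences of -0.30 to 0.04. Srf itself read 9.26, 9.17 and 9.29 in DMT, against 8.96, 9.08 and 9.01 in GMT (0.22 ± 0.08, adjusted p = 0.104). It passed the test in the fit on the 6 arrays alone (adjusted p = 0.0329) and in that on all 28 arrays (0.0281). The related coactivators Mrtfa (0.03) and Mrtfb (-0.10) were not called.

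Sarcomere genes moved in both directions. Of 25 tested members 13 were higher in DMT (4 of them dim in GMT) and 6 lower (2 dim in DMT), against 6.48% and 6.49% of all genes, with a median of 0.25. These shares rest on the filter on dim genes. Without it 15 of 38 members were higher and 8 lower. Acta1, the skeletal α-actin that is also made in the fetal heart, read 10.56, 10.46 and 10.72 in DMT, against 7.08, 7.16 and 7.15 in GMT (3.45 ± 0.08, 10.9-fold). Myom1, the M-band protein myomesin, read 9.42, 9.72 and 10.00 in DMT, against 6.66, 6.70 and 6.78 (dim) in GMT (3.00 ± 0.11, 7.99-fold). Actc1, the cardiac α-actin, read 12.63, 12.50 and 12.71 in DMT, against 10.11, 10.02 and 10.21 in GMT (2.50 ± 0.12, 5.65-fold). The 2 actins and myomesin are the genes whose CArG boxes are printed above. Myh6, the α myosin heavy chain of the adult mouse heart, read 8.91, 9.30 and 9.37 in DMT, against 6.82, 6.53 and 6.75 (dim) in GMT (2.49 ± 0.14, 5.63-fold). Named after their values were seen, cardiac troponin C, Tnnc1 (1.93 ± 0.17), and titin, Ttn (1.40 ± 0.09, dim in GMT), were also higher. The Myh7 and Myl2 genes, which mark ventricular muscle, lay below the array median on all 6 arrays and were not tested.

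The sarcomere members that were lower in DMT included subunits of the thin filament and of the atrial myosin. Tnni3, the cardiac troponin I that marks maturing cardiomyocytes, read 8.60, 8.26 and 8.24 in DMT, against 10.61, 10.51 and 10.48 in GMT (-2.17 ± 0.11, adjusted p = 3.13e-09). All DMT arrays lay more than 1.5 log2 units under all GMT arrays. Myl4, the atrial essential light chain, read 11.58, 11.51 and 11.68 in DMT, against 12.30, 12.22 and 12.13 in GMT (-0.63 ± 0.11). The small muscle protein Smpx (-1.03 ± 0.16) and the M-band protein Myom2 (-1.03 ± 0.12, dim in DMT) were named after their values were seen. Tnnt2, the troponin T whose promoter drove the selection, read 12.17, 12.29 and 12.54 in DMT, against 12.71, 12.57 and 12.68 in GMT (-0.32 ± 0.09, adjusted p = 0.0261). That call was lost without DMT replicate 1 (adjusted p = 0.127) or 2 (0.0993) and without GMT replicate 3 (0.0971) or 5 (0.0673). It was also lost on the 6 arrays alone (0.0584), and on these with a term for array number (0.0567). The other member called lower was Mybpc3 (-0.36, dim in DMT), the cardiac myosin-binding protein C.

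Calcium handling genes were called in both directions, 4 higher (19.0%) and 3 lower (14.3%) of 21 tested, against 6.48% and 6.49% of all genes. With no filter on dim genes 5 of 28 members were higher and 4 lower. Srl, the luminal calcium-binding protein sarcalumenin, read 10.68, 10.84 and 11.12 in DMT, against 7.99, 7.95 and 8.32 in GMT (2.79 ± 0.10, 6.93-fold). Casq2, the cardiac calsequestrin that stores calcium in the sarcoplasmic reticulum, read 8.44, 8.62 and 8.72 in DMT, against 6.24, 6.27 and 6.17 (dim) in GMT (2.37 ± 0.08). Jph2, the junctophilin that ties that store to the surface membrane, rose less (0.56 ± 0.08). Ryr2, the release channel of the same store, went the other way at 6.54, 6.48 and 6.59 (dim) in DMT, against 7.47, 7.38 and 7.86 in GMT (-1.03 ± 0.10, adjusted p = 3.58e-06). Cacna1c (-0.45) and Cacna1g (-0.56), pore subunits of the L-type and T-type calcium channels, were the other members called lower, and the exchanger Slc8a1 (0.41) was the other one called higher. The calcium pump Atp2a2 was not called (0.07, 95% interval -0.13 to 0.28), and its inhibitor Pln was below the array median on all 6 arrays.

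Among ion channels and gap junctions, 3 of 11 tested members were higher (27.3%, against 6.48% of all genes) and 1 was lower (9.09%, near the 6.49% of all genes). With no filter on dim genes 4 of 27 members were higher and 2 lower. Hcn4, the pacemaker channel of the sinus node, read 8.34, 8.25 and 8.45 in DMT, against 7.04, 6.95 and 6.88 in GMT (1.39 ± 0.12). Popdc2, a cAMP-binding membrane protein of heart and skeletal muscle, read 8.96, 8.82 and 9.48 in DMT, against 7.16, 7.23 and 7.03 in GMT (1.95 ± 0.13), while its relative Popdc3 was lower (-0.67 ± 0.07). Hcn2, another pacemaker channel, rose by a small amount (0.36 ± 0.08). The connexin Gja1 differed by 0.17 ± 0.05 (adjusted p = 0.052) and passed the test under median centring (adjusted p = 0.0374) and in the fit on all 28 arrays (0.00281).

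Nppa, the atrial natriuretic peptide gene, read 11.38, 11.22 and 11.51 in DMT, against 7.56, 7.58 and 7.87 in GMT (3.70 ± 0.15, 13.0-fold, adjusted p = 2.12e-10). Its level differed widely between the other mixtures too, with a mean of 10.55 ± 0.31 in NGMT, 6.16 ± 0.20 in HGMT and 8.38 ± 0.13 in HNGMT (SD, n = 3 each), so DMT stood 0.82 ± 0.15 above NGMT (adjusted p = 0.00107). Of the 13 tested members of the atrial and natriuretic list 2 were higher (Nppa and Dkk3) and 4 lower (Myl4, Stard10, Corin and Nppc), with a median of -0.10. These shares were 15.4% and 30.8%, against 6.48% and 6.49% of all genes. Without the filter on dim genes 2 of 18 members were higher and 5 lower. Nppb, the related brain natriuretic peptide gene, was not called (0.20). Of the ventricular list, only 4 of the 11 members with a probe set passed the filter on dim genes. Of these 4, 1 was higher, Cited1 (0.80 ± 0.09), and 0 were lower, against 6.48% and 6.49% of all genes. Without the filter 2 of 11 members were higher and 0 lower, so the count among 4 does not describe the list.

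Of 25 tested cardiac transcription factors and cofactors outside the mixtures, 2 were higher (8.0%) and 2 lower (8.0%), shares near those of all genes (6.48% and 6.49%). The T-box factor Tbx18 of the epicardium and sinus node (0.66 ± 0.09) and the Notch target Hey1 (0.83 ± 0.09, dim in GMT) were higher. Ankrd1, a stretch-responsive nuclear cofactor, was lower (-0.47 ± 0.09), as was Ebf1 (-0.53), whose call was lost without DMT replicate 3 (adjusted p = 0.0645) or GMT replicate 4 (0.0519) and on the 6 arrays alone (0.0567). Gata6, named after its value was seen, read 7.98, 7.89 and 7.81 in DMT, against 8.04, 8.15 and 8.17 in GMT. It was not called (-0.22 ± 0.11, adjusted p = 0.27) in the fit reported here but was in the fit on all 28 arrays (-0.28, adjusted p = 0.0384).

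Only 13 of the 33 skeletal muscle genes with a probe set passed the filter on dim genes, of which 7 were higher in DMT and 2 lower. Of the 7, 4 were dim in GMT and passed the filter through arrays of other groups, so this count does not describe the list. Myh1, a fast skeletal myosin heavy chain, read 8.05, 8.33 and 8.37 in DMT, against 6.10, 6.35 and 5.97 (dim) in GMT (2.11 ± 0.11). Mylpf, the fast skeletal regulatory light chain, read 7.61, 7.51 and 7.59 in DMT, against 5.59, 5.58 and 5.40 (dim) in GMT (2.05 ± 0.07). Myh4, another fast myosin (1.65 ± 0.06, dim in GMT), dystrophin, Dmd (1.47 ± 0.11, dim in GMT), and muscle creatine kinase, Ckm (1.35 ± 0.10), were higher as well. The myogenic regulators Myod1 and Myog stayed below the array median on all 6 arrays, and the fast troponins Tnnt3 (0.05) and Tnni2 (-0.03) were not called. With no filter on dim genes 11 of 33 members were higher and 3 lower, and with a filter on the mean of the 6 arrays 5 of 11 were higher and 2 lower.

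Several of the largest rises fell outside every list. Efhd1, a calcium-binding EF-hand protein of mitochondria, read 11.18, 10.91 and 11.55 in DMT, against 7.12, 6.77 and 6.93 in GMT (4.28 ± 0.14, 19.4-fold). Pilra, an inhibitory receptor known from myeloid cells, read 9.43, 9.68 and 9.55 in DMT, against 5.36, 5.26 and 5.22 (dim) in GMT (4.27 ± 0.12, 19.3-fold). Of 8 macrophage markers, Cd68 alone lay above the array median on all 3 arrays of either group, at 9.64 to 9.76 in DMT and 9.37 to 9.74 in GMT. The mean level of the 8 markers was 6.22 to 6.28 in DMT and 6.23 to 6.40 in GMT, under the array median. Tm6sf1, a gene of a transmembrane protein, read 10.07, 10.18 and 10.47 in DMT, against 6.26, 6.18 and 6.30 (dim) in GMT (3.99 ± 0.09). Entpd1, the ATP-degrading ectoenzyme CD39 of endothelium, lymphocytes and vascular smooth muscle, read 9.62, 9.70 and 9.87 in DMT, against 6.64, 6.52 and 6.62 (dim) in GMT (3.14 ± 0.09, 8.79-fold). For all 4 genes the 9 arrays of the other mixtures lay below every DMT array, at no more than 7.09 for Efhd1, 5.88 for Pilra, 6.47 for Tm6sf1 and 6.82 for Entpd1.

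Interferon response genes were lower in DMT. Of 26 tested members none was higher and 19 were lower, against 6.49% of all genes, and all 26 differences were below 0, with a median of -0.62. Oas2, an interferon-induced sensor of double-stranded RNA, read 8.45, 8.14 and 8.43 in DMT, against 10.73, 10.51 and 10.40 in GMT (-2.20 ± 0.20, adjusted p = 1.87e-06). Its relatives Oasl2 (-1.33 ± 0.14) and Oas3 (-1.30 ± 0.18, dim in DMT) were lower too. Irf7, the factor that amplifies interferon production, read 8.97, 8.94 and 9.12 in DMT, against 10.61, 10.19 and 10.12 in GMT (-1.30 ± 0.16). Named after their values were seen, Ifit1, which blocks translation of foreign RNA (-0.69 ± 0.15), and Bst2, the membrane tether of budding virions (-0.65 ± 0.12), were lower. The 7 members that were not called were Cxcl10, Ifit3, Ddx58, Ifi35, Irf9, Ifit2 and B2m, at -0.46 to -0.03. Among the largest falls of all genes, Slfn5, a Schlafen family gene induced by interferon, read 6.96, 6.76 and 6.75 in DMT, against 9.77, 9.86 and 9.88 in GMT (-3.01 ± 0.08, 8.07-fold lower). Iigp1, an interferon-inducible GTPase, read 7.32, 7.23 and 7.14 in DMT, against 10.11, 10.05 and 9.76 in GMT (-2.74 ± 0.12), and the nuclear body protein Sp100 was lower (-2.35 ± 0.12, dim in DMT).

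The letters GAAA, any 2 bases and GAAA again, shared by the response elements of interferon-stimulated genes, were in the promoter window of 12 of 23 interferon list genes with an entry (52.2%). They were in 11.1% of the genes called lower, 25.3% of those at least 2-fold lower (20 of 79), 3.48% of those called higher, 3.57% of all genes tested and 3.44% of all promoters of the table. Both strands were searched and matches could overlap, as they do in Bst2. To show these letters, 2 promoters are printed as before, with the matches in capitals. A match on the other strand reads TTTC, 2 bases and TTTC. In Ifit1 at chr19:34640639-34640888 (plus strand) they begin 104 and 85 bases before the start, and in Bst2 at chr8:71537473-71537722 (minus strand) 130 and 124 bases before it.
Ifit1: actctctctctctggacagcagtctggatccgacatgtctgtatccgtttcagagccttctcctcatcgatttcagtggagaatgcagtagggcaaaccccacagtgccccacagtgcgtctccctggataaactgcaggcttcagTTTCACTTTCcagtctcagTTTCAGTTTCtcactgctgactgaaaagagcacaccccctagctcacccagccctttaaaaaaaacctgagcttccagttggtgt
Bst2: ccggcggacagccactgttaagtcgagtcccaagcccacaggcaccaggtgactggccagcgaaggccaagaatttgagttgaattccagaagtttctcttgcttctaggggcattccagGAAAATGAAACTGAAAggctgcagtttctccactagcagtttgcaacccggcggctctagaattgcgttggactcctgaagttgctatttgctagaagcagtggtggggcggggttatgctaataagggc

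Among the largest falls outside the lists were 2 complement genes. Component C4b read 8.57, 6.77 and 6.92 in DMT, against 10.51, 10.73 and 10.40 in GMT (-3.13 ± 0.32, 8.77-fold lower), with DMT replicate 1 apart from the other two. Factor B of the alternative pathway, Cfb, read 7.54, 7.03 and 6.69 in DMT, against 10.01, 10.14 and 9.32 in GMT (-2.74 ± 0.21). Chosen after their values were seen, with no list of complement genes behind them, C2 was at 6.57, 6.65 and 6.59 (dim) in DMT, against 8.56, 8.46 and 8.62 in GMT (-1.94 ± 0.09). The complement inhibitor Serping1 was at 10.30, 9.91 and 9.72 in DMT, against 11.89, 12.06 and 11.90 in GMT (-1.97 ± 0.11).

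Inflammatory cytokine and acute phase genes were lower in DMT in 17 of 29 tested members (58.6%, against 6.49% of all genes). Of the 29, 1 was higher (3.45%, against 6.48%), and the median was -0.50. Without the filter on dim genes 17 of 38 members were lower and 1 higher. Saa3, an acute phase protein, read 7.80, 7.05 and 6.80 in DMT, against 8.90, 9.27 and 8.73 in GMT (-1.75 ± 0.32). The chemokine Ccl5 read 7.58, 7.68 and 7.70 in DMT, against 9.26, 8.89 and 8.94 in GMT (-1.37 ± 0.18), and the cytokine Il6 was at 5.88, 5.70 and 5.50 (dim) in DMT, against 7.18, 7.28 and 6.66 in GMT (-1.35 ± 0.28). The iron-binding Lcn2 was lower (-1.33 ± 0.31), by -0.85 without DMT replicate 3, and its call was lost on the 6 arrays alone (adjusted p = 0.0544). Tnfaip6, a hyaluronan-binding protein of inflamed tissue, was the member that was higher (0.54 ± 0.08). Ptgs2, the inducible prostaglandin synthase, was not called (0.05 ± 0.08, 95% interval -0.12 to 0.21). Both were named after their values were seen.

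Mesothelial and epithelial genes fell in 6 of 15 tested members (40.0%, against 6.49% of all genes). They rose in 2 (13.3%, against 6.48%), and the median was -0.30. Without the filter on dim genes 6 of 24 members were lower and 3 higher. Upk1b, an uroplakin of urothelium and mesothelium read 6.09, 5.92 and 6.06 (dim) in DMT, against 9.41, 9.11 and 9.46 in GMT (-3.31 ± 0.13, 9.91-fold lower). Aldh1a2, the retinoic acid synthesizing enzyme of the epicardium, read 7.01, 6.98 and 6.63 in DMT, against 8.41, 9.04 and 8.83 in GMT (-1.89 ± 0.16). Msln, the mesothelial surface protein mesothelin, read 7.34, 7.43 and 7.58 in DMT, against 8.82, 8.89 and 8.86 in GMT (-1.41 ± 0.12). Against this, the simple epithelial keratin Krt18 was higher at 9.14, 9.38 and 9.84 in DMT, against 8.25, 7.92 and 8.11 in GMT (1.36 ± 0.15). The other member that was higher was Tbx18, named above.

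**Figure D3:**
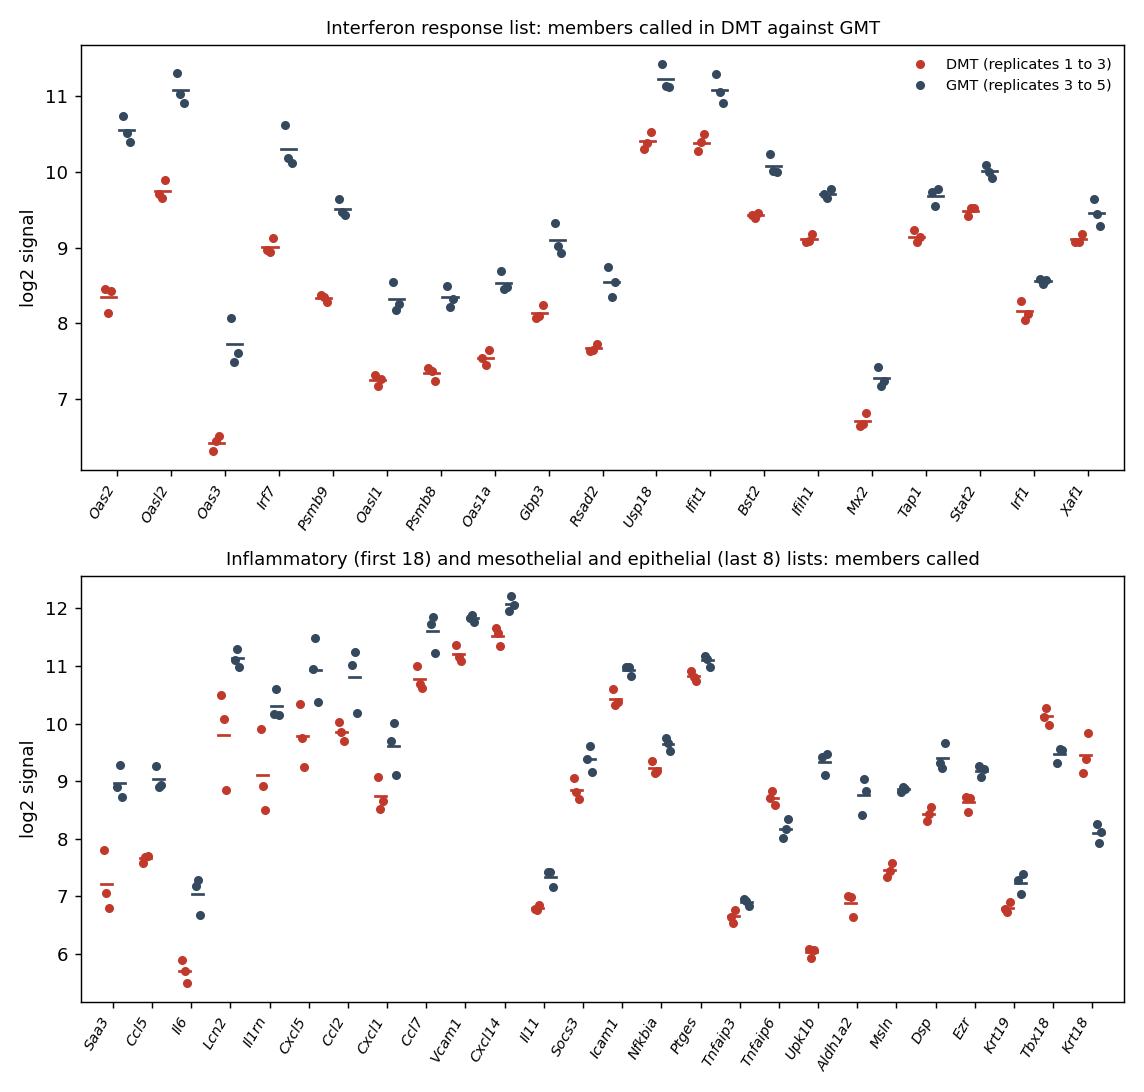
Log2 signal (vertical axis) of each array for the members called in the interferon list (top) and in the inflammatory and the mesothelial and epithelial lists (bottom). Red points are DMT replicates 1 to 3, dark points GMT replicates 3 to 5, and the short lines are group means. All 19 interferon members lie lower in DMT, and Tnfaip6, Tbx18 and Krt18 are the members of the lower panel that lie higher.

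Adipocyte genes were lower in DMT in 7 of 18 tested members (38.9%, against 6.49% of all genes), with a median of -0.36. They were higher in 1, Slc2a4 (0.38, dim in GMT), a share of 5.56%, near the 6.48% of all genes. Without the filter on dim genes 7 of 22 members were lower and 1 higher. Car3, a carbonic anhydrase abundant in fat and slow muscle, read 7.69, 6.90 and 6.67 in DMT, against 9.78, 10.72 and 10.21 in GMT (-3.15 ± 0.30, 8.88-fold lower). Pparg, the regulator of fat cell formation, read 8.21, 7.96 and 7.96 in DMT, against 9.23, 9.25 and 9.22 in GMT (-1.19 ± 0.08), lipoprotein lipase, Lpl, was lower by -1.18 ± 0.19, and the fatty acid desaturase Scd1 was lower by -0.54 ± 0.10. Fabp4, the fatty acid carrier that marks mature fat cells, was not called (0.00, 95% interval -0.47 to 0.47).

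Most fibroblast and matrix genes were not called, 38 of 51, with a median of -0.05. Of the 51, 10 were lower (19.6%, against 6.49% of all genes) and 3 higher (5.88%, near the 6.48% of all genes). The collagen genes Col1a1 (0.03), Col1a2 (0.07) and Col3a1 (-0.19) were among those not called. Fbln1, a matrix glycoprotein of elastic fibres, read 9.87, 9.41 and 9.33 in DMT, against 10.87, 11.19 and 10.94 in GMT (-1.47 ± 0.14). The collagen Col14a1 was lower (-1.17 ± 0.12), and so were the protease Mmp9 (-1.40 ± 0.33), whose call was lost without DMT replicate 3 (adjusted p = 0.0584), and the microfibril protein Mfap4 (-0.68 ± 0.19). The Mfap4 call was lost on the 6 arrays alone (0.0817) and without DMT replicate 1 (0.118) or 2 (0.0822) or GMT replicate 4 (0.0784) or 5 (0.113, with a difference of -0.45). Named after their values were seen, the small proteoglycan decorin, Dcn, was lower by little (-0.22 ± 0.05) and the fibroblast surface protein Thy1 was higher (0.50 ± 0.06). Of 25 TGF-beta response genes 5 were higher (20.0%, against 6.48% of all genes), among them the ligand Tgfb3 (0.82 ± 0.09). Of the same 25, 2 were lower (8.0%, near the 6.49% of all genes), the secreted adhesion protein Tgfbi (-1.22) and the ligand Bmp2 (-0.60 ± 0.15). The Bmp2 call was lost without DMT replicate 3 (adjusted p = 0.063) and on the 6 arrays alone (0.091), and its difference was -0.36 without GMT replicate 5. Of 25 WNT and Notch genes 2 were higher (8.0%, near the 6.48% of all genes) and 5 lower (20.0%, against 6.49%), or 3 lower without DMT replicate 3. Without the filter on dim genes 2 of 37 members were higher and 5 lower. The secreted WNT antagonists Sfrp1 (-1.86 ± 0.21) and Sfrp2 (-0.91 ± 0.18) were lower, as was the WNT agonist Rspo2 (-0.78 ± 0.18), whose call was lost without DMT replicate 3 (adjusted p = 0.0541) or GMT replicate 4 (0.0545) and in the fit on all 28 arrays (0.0904). Sfrp1 read 10.86, 10.08 and 9.67 in DMT, against 12.03, 12.32 and 11.84 in GMT.

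Cartilage and bone genes were higher in 4 of 9 tested members (44.4%, against 6.48% of all genes). Among them were aggrecan, Acan (1.60 ± 0.15, dim in GMT), the bone sialoprotein Ibsp (1.45 ± 0.30) and the dentin matrix protein Dmp1 (1.09 ± 0.18). Of the 9, 1 was lower (11.1%, against 6.49%), the proteoglycan Epyc (-1.83 ± 0.16). These shares rest on the filter on dim genes, without which 4 of 15 members were higher and 1 lower. Cell cycle (1 higher and 1 lower of 15), p53 and senescence (0 and 1 of 24) and oxidative metabolism (3 and 2 of 33) genes were called at shares near those of all genes. The members called included the centromeric histone Cenpa (-1.38 ± 0.11), cyclin E1, Ccne1 (0.27 ± 0.06), the kinase Pdk4, which restrains glucose oxidation (-0.65 ± 0.08), and the brain-type creatine kinase Ckb (0.54 ± 0.10). They also included the fatty acid carrier Fabp3 (-0.50 ± 0.15) and the receptor Eda2r (-0.19 ± 0.05). The Fabp3 call was lost under median centring (adjusted p = 0.0558), with no filter (0.0539) and without DMT replicate 1 (0.0683), 2 (0.139) or 3 (0.117) or GMT replicate 3 (0.183) or 5 (0.0772). The Eda2r call was lost without DMT replicate 2 (0.0738) or 3 (0.107) or GMT replicate 3 (0.0807) or 4 (0.0597). Among the p53 genes, Sesn1 was not called (0.32) but passed under median centring, quantile normalization and in the fit on all 28 arrays. Of 10 endothelial genes 2 were higher (20.0%, against 6.48% of all genes), the adhesion molecule Esam (1.06 ± 0.08, dim in GMT) and the TGF-beta coreceptor Eng (0.39 ± 0.09). Another 2 were lower (20.0%, against 6.49%), Ramp2 (-0.64 ± 0.08) and Egfl7 (-0.23 ± 0.07). Among all 19 endothelial members with a probe set, with no filter on dim genes, 2 were higher and 1 lower. The Egfl7 call was lost under both normalizations, with no filter, on the 6 arrays alone and in 5 of the 6 fits without 1 array (all but GMT replicate 5). Of 7 neural genes the intermediate filament gene Nes was higher (1.17 ± 0.11) and Snap25 (-0.67 ± 0.10, dim in DMT) and Stmn2 (-0.59 ± 0.11) were lower. These shares were 14.3% and 28.6%, against 6.48% and 6.49% of all genes. Without the filter on dim genes 1 of 16 neural members was higher and 4 were lower. None of the 3 macrophage genes tested was called, of 19 listed, Lyz2 among them (-0.12 ± 0.69, dim in both groups). Remaining large falls outside the lists were Gpr165, Gm4951, Greb1, Egfl6 and Clca3a2, at -3.24 to -2.21. In Egfl6 the DMT arrays were spread widely, at 8.72, 7.17 and 6.51, against 9.93, 10.16 and 9.03 in GMT.

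Defining markers were set beside the labels, which call the selected cells iCMs made from MEFs. A marker is counted as above the median in a group when it was so on all 3 of its arrays. All 8 smooth muscle markers were above the array median on all 3 DMT arrays, against 3 on all 3 GMT arrays, and all 8 were higher in DMT. Their mean level was 10.13 to 10.36 in DMT and 7.51 to 7.59 in GMT. Of 12 cardiomyocyte markers 7 were above the median in DMT and 7 in GMT, 4 were higher in DMT and 4 lower, and their mean level was 8.53 to 8.70 in DMT and 8.09 to 8.22 in GMT. Of 8 skeletal muscle markers 4 were above the median in DMT and 3 in GMT, 2 were higher in DMT, and their mean level was 6.57 to 6.61 in DMT and 6.07 to 6.20 in GMT. All 8 fibroblast markers were above the median in both groups, at a mean level of 11.76 to 11.92 in DMT and 11.74 to 12.06 in GMT. Of 7 mesothelial and epithelial markers 3 were above the median in DMT and 4 in GMT (mean level 6.62 to 6.67 in DMT and 6.93 to 7.03 in GMT). Of 6 adipocyte markers 2 were above it in DMT, at a mean level of 7.31 to 7.43, and 4 in GMT, at 7.80 to 8.05. No endothelial (6) or neural (5) marker was above the median on all 3 arrays of either group. Many of these markers, such as Cnn1, Myh11, Msln and Pparg, are also members of the lists, so their levels are no separate measurement.

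The same DMT arrays were also set against the mixtures that add a factor to GMT, which share them and the fit, so the counts stand side by side only. DMT differed from NGMT in 797 genes that were higher (6.98%) and 842 that were lower (7.37%), and from HGMT in 1886 (16.5%) and 1498 (13.1%). Of the 33 smooth muscle genes 26 were higher and 1 lower than in NGMT, and 23 higher and 2 lower than in HGMT. Of the 25 sarcomere genes 14 were higher and 5 lower than in NGMT, and 18 and 3 against HGMT. Of the 26 interferon genes none was higher and 24 lower than in NGMT, but 1 was higher and 6 lower than in HGMT. Irf7, for example, averaged 9.01 ± 0.10 in DMT, 10.24 ± 0.07 in NGMT and 9.08 ± 0.36 in HGMT (SD, n = 3 each), a difference from NGMT of -1.23 ± 0.16 and from HGMT of -0.07 ± 0.16 (adjusted p = 0.792). Casq2 averaged 8.59 ± 0.14 in DMT, 6.31 ± 0.10 in NGMT and 9.0 ± 0.14 in HGMT, and was thus higher than in NGMT (2.28 ± 0.08) and lower than in HGMT (-0.40 ± 0.08, adjusted p = 0.00172). Cnn1 and Acta1 were higher against both, Cnn1 by 4.46 ± 0.11 and 4.88 ± 0.11 and Acta1 by 3.40 ± 0.08 and 3.39 ± 0.08. Of the mesothelial genes 7 were lower than in NGMT and 11 lower than in HGMT, of 15, and of the 18 adipocyte genes 9 and 14.

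How GMT cultures differed from 0F cultures in the same genes was read from arrays that share none with the comparison above. These were GMT replicates 1 and 2 and 0F replicates 1 to 3, which differ in viruses and selection as well as factors. GMT was higher than 0F in 4338 of 11558 genes tested (37.5%) and lower in 2840 (24.6%). Of the genes called higher in DMT than in GMT and tested here, GMT was higher than 0F in 53.7% and lower in 24.1%. Of those called lower in DMT, it was higher than 0F in 47.4% and lower in 36.6%. All 6 sarcomere genes that were lower in DMT than in GMT were higher in GMT than in 0F, as were 10 of the 12 sarcomere genes tested among those that were higher in DMT. Over the whole sarcomere list, whatever the DMT call, GMT was higher in 23 of 25 tested members (92.0%). The difference GMT minus 0F was 2.71 for Tnni3, 5.12 for Tnnt2, 4.40 ± 0.08 for Actc1 and 0.13 ± 0.08 for Acta1 (adjusted p = 0.181). Smooth muscle genes that were higher in DMT were mostly higher in GMT than in 0F too, 16 of 21 tested, at 1.23 for Tagln and 0.70 ± 0.11 for Cnn1. Of these genes 3 were lower in GMT than in 0F, among them Aoc3 (-4.57) and Pgm5 (-3.58). Over the whole smooth muscle list GMT was higher in 18 of 28 tested members (64.3%) and lower in 4 (14.3%).

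The inflammatory genes that were lower in DMT had been higher in GMT than in 0F in 14 of 16 tested and lower in none, by 6.31 ± 0.15 for Saa3 and 5.65 ± 0.17 for Il6. Over the whole inflammatory list, whatever the DMT call, GMT was higher in 22 of 28 tested members (78.6%). All 6 mesothelial genes that were lower in DMT were higher in GMT than in 0F, by 6.01 ± 0.05 for Upk1b and 5.04 ± 0.10 for Msln. In that list 14 of 15 tested members were higher in GMT (93.3%). The 7 adipocyte genes that were lower in DMT were lower in GMT than in 0F as well, by -7.21 ± 0.09 for Car3. So were all 20 tested members of the adipocyte list, whatever their DMT call. Of the 19 interferon genes that were lower in DMT, 3 were higher and 5 lower in GMT than in 0F, against 3 and 8 of all 26 tested. The counts lay near the shares of the whole lists, so they do not set apart the genes that were lower in DMT. Because the protocol has the 0F cells not transduced, this comparison spans the viruses and the selection together with the factors.

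**Figure D4:**
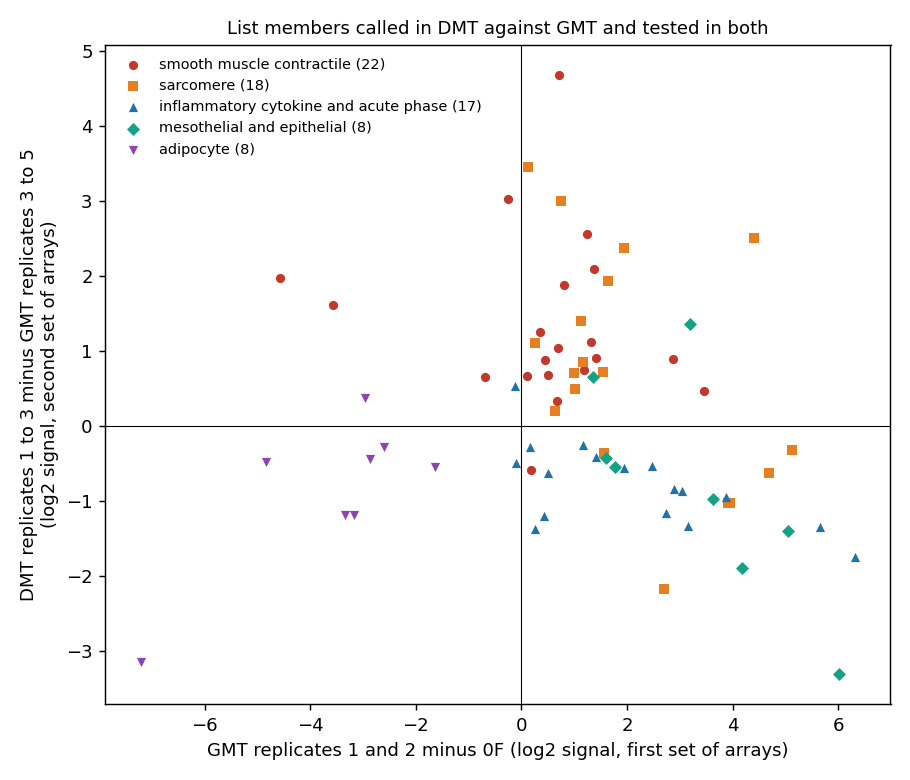
Members of 5 gene lists that were called in DMT against GMT and tested in both fits, by their difference GMT replicates 1 and 2 minus 0F (horizontal axis, log2) and DMT replicates 1 to 3 minus GMT replicates 3 to 5 (vertical axis, log2), which share no array. Each point is 1 gene. Inflammatory and mesothelial genes lie mostly at the lower right, adipocyte genes at the left, and most smooth muscle genes above 0 on the vertical axis.

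DMT replicate 4 was scaled with DMNT arrays, apart from all GMT arrays, and did not enter the comparison. After quantile normalization of all 28 arrays, chosen after the data were seen, it lay above all 3 GMT arrays for 40.8% of all genes tested and below all 3 for 40.0%, so set and group cannot be told apart on this array. Of the genes called higher in DMT it lay above all 3 GMT arrays for 675 of 740 (91.2%), and of those called lower it lay below them for 690 of 741 (93.1%). It did so for 26 of 26 smooth muscle genes and 13 of 13 sarcomere genes that were higher, and for 19 of 19 interferon and 16 of 17 inflammatory genes that were lower. Of the 6 sarcomere genes that were lower, 3 lay below all 3 GMT arrays. Myl4 (0.32) and Tnnt2 (0.21) were above the GMT mean on it, as was Ankrd1 (0.38).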

How the data were processed

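Gene expression was measured on an Affymetrix mouse array. The authors deposited log2 signals of 35556 probe sets on 28 arrays, and MAS5 is the tool named, per the submitters' processing notes, without a version. How the arrays were scaled is not stated there. Distances between the sorted values of arrays (0.05 at most within, 0.14 at least between) gave 3 separately scaled sets of 8, 15 and 5 arrays, and comparisons were made only within a set, except where stated. Probe sets were named from the platform table (21789 with 1 symbol, 1621 with several, 12146 with none), and 1 probe set per gene was kept, that of highest mean over all arrays, for 19938 genes. Genes above the array median on at least 3 arrays of the fit were tested with limma 3.58.1 (R 4.3.3): lmFit with group as the only term on the 15 arrays scaled together (10 residual degrees of freedom), eBayes with trend, two-sided p-values with Benjamini-Hochberg adjustment over all 11426 genes tested, called under 0.05. GMT minus 0F had its own fit on 8 arrays (5 residual degrees of freedom, 11558 genes tested). Values after ± are standard errors of a difference, or SDs over arrays where so marked. The 3 arrays a group limit the precision, and exact tests over 3 against 3 arrays cannot go below p = 0.1.

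The rule for named genes took the 6 factors of the mixtures, the 12 largest rises and falls among called genes whose arrays do not overlap, and up to 4 called members of each of 24 lists with the largest change (up to 2 of smallest p where fewer than 2 were called). These are 102 genes, and 24 further genes were chosen after their values were seen. Other list members are named only to complete a count of calls, or as members that were not called. The comparison, lists and markers were chosen with earlier results of these data known. The 24 lists have 685 entries, of which 650 had a probe set and 477 were tested. Promoters came from RefSeq (GRCm38.p6), with an entry for 9132 of the 11426 genes. In simulated data with 100 genes changed at each size, DMT minus GMT as fitted recovered 89% of changes of 0.5 and 100% of changes of 1 (log2), with 11 false calls over 11426 genes. The simulated noise was normal and independent between genes and arrays, with the spread estimated by the fit. Deviations that genes share on an array were not simulated, so these figures hold for that setting only. Alternatives were other arrays in the fit, normalization, filter, probe set rule, variance model, left-out arrays and a block by array number.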

Additional observations from a re-analysis of the deposited data

How the results depend on the processing

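DMT minus GMT gave 1365 to 1592 calls under 8 alternatives (the 6 arrays alone, quantile normalization, median centring, no filter, a filter on the mean, the mean over probe sets, eBayes without trend, robust eBayes), against 1481 as reported. With all 28 arrays and set as a term it gave 2270 calls, 1201 of them higher in DMT against 740, and DMT minus NGMT gave 1269 higher against 797. Median centring moved the split to 871 higher and 688 lower. Leaving out 1 array gave 1062 to 1529 calls (513 to 821 higher, 541 to 708 lower). Over the same left-out arrays the smooth muscle count stayed at 26, sarcomere genes at 13 higher and 5 to 6 lower, interferon genes at 16 to 20 lower, inflammatory genes at 13 to 18 lower and WNT and Notch genes at 3 to 6 lower. With no filter 11 skeletal muscle genes were higher, against 7. Deviations from the group means did not go together by array number (correlations 0.06, -0.22 and -0.18). In another order they were 0.24 (DMT replicate 1 with GMT replicate 4), 0.42 (2 with 5) and 0.29 (3 with 3). The remaining pairs were at -0.41, -0.04 and -0.18, and pairing in an order other than by number was not tested. A replicate block by array number gave 1213 calls (624 higher, 589 lower). Under that block the calls of Gata4 (adjusted p = 0.138, limma), Tnnt2 (0.0567), Mmp9 (0.069), Bmp2 (0.112), Eda2r (0.0509) and Egfl7 (0.147) were lost. The sign of small differences turned with the normalization for Hand2 (0.0114 under quantile normalization, 0.0158 under median centring) and, in GMT minus 0F, for Irf7 (-0.0118 under quantile normalization). Signs also turned with 1 array left out, over ranges of -0.0715 to 0.0799 for Tbx5, -0.0184 to 0.0654 for Nkx2-5, -0.0905 to 0.0461 for Hand2 and -0.2806 to 0.1271 for Lyz2. In GMT minus 0F these ranges were -0.0297 to 0.0223 for Nkx2-5, -0.0563 to 0.0082 for Srl, -0.1075 to 0.0058 for Cited1, -0.1919 to 0.2557 for Irf7, -0.0216 to 0.0256 for Snap25 and -0.2449 to 0.0059 for Ifit1. On DMT replicate 4, Myl4 (0.3224), Tnnt2 (0.2054), Ankrd1 (0.3792), Egfl7 (0.2716) and Stmn2 (0.3916) turned above the GMT mean. The cause was not tested for any of these. Probe sets below the array median on one side give no exact size of change.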
